A study of Mus musculus with 2 samples.

Results

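The genes described here encode 10 enzymes and accessory proteins that make prostaglandins, thromboxane and leukotrienes: Pla2g4a, Ptgs1, Ptgs2, Ptges, Hpgds, Tbxas1, Alox5, Alox5ap, Lta4h and Ltc4s. They were found by matching the accession of each non-control probe to a RefSeq gene table, which gave 11 probes of 39429 and 10 genes of 20659. Ptges had 2 probes and the other genes had 1 each. RNA of cultured RAW246.1 cells, labelled as macrophages and grown in DMEM medium, was hybridised to 2 Agilent mouse arrays in 1 colour, Cy3: 1 array of cells given PBS (the mock) and 1 of cells given synthetic miR-122, a microRNA abundant in liver. The labels put the dose at 5 μg/mL. The sample called miR-122 here has that group by its source name and description, whereas its title reads as if the microRNA were left out and the treatment text of both samples is identical. The sources used here do not give the time of exposure, and the label of that array was not checked against any gene here.

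These proteins act in pathways that start from arachidonic acid. Cytosolic phospholipase A2 frees it from membrane lipids, and cyclooxygenases turn it into prostaglandin H2, from which terminal synthases make prostaglandins and thromboxane. In a separate branch 5-lipoxygenase, helped by its activating protein, makes leukotriene A4, which is the precursor of leukotriene B4 and of the cysteinyl leukotrienes. Macrophages are a known source of both kinds of mediator, and Ptgs2 is a classical early gene of macrophage activation, while Ptgs1 is usually called the constitutive cyclooxygenase.

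Relative to PBS, the miR-122 array was higher by at least 2-fold for 2 of the 10 genes, Ptgs2 by 2.29-fold and Tbxas1 by 2.70-fold, and lower by at least 2-fold for 1, Alox5 by 3.14-fold. A gene is called detected where the scanner software marked its probe as well above background. Among all 15022 named genes detected on both arrays, 4.57% were higher by 2-fold or more and 1.78% were lower by as much. Ptgs1 was detected with PBS only, so 9 of the 10 genes had a measured difference. With 1 array per group no test was possible, and each difference compares these 2 cultures without any measure of the spread between cultures. In bulk RNA a change in the number of expressing cells and a change in RNA per cell cannot be told apart.

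Signals are given as the processed intensity of the scanner software, and levels as the log2 signal relative to the 75th percentile of the non-control probes of the same array. Differences are levels on the miR-122 array minus levels on the PBS array. Before scaling, the 75th percentiles differed by -0.28, so a ratio of 2 signals is lower than the scaled fold. On the scaled values the median difference over all 15022 genes was 0.09. Different probes of a gene gave differences with a pooled standard deviation of 0.30 over 3575 genes. This is called the technical spread here and is the only one available for single-probe genes. It was pooled over all levels and leaves out any variation that all probes of a gene share. A difference larger than it is therefore not shown to exceed the full technical variation.

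The stretches upstream of the 3 genes past 2-fold are shown because these genes went in opposite directions. They come from RefSeq on GRCm38.p6, which held a window for 9 of the 10 genes, 10 windows in all. Each runs 5′ to 3′ along the transcript from 250 bases before to 50 bases after the annotated start. Capitals mark matches, on either strand, to the TATA box letters TATAAA, the GC box letters GGGCGG, the E-box letters CACGTG, the cyclic AMP response element core TGACG, the AP-1 letters TGANTCA, the C/EBP letters TTGCNNAA, the gamma-activated site letters TTCNNNGAA, and the NF-kB and interferon-stimulated response element consensus sequences.
Ptgs2 (chr1:150099781-150100080, plus strand): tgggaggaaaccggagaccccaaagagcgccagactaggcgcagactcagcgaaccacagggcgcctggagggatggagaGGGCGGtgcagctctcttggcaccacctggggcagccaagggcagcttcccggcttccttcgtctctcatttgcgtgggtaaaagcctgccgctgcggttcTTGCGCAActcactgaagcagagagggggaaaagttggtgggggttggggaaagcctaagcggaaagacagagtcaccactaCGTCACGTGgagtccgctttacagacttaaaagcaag
Tbxas1 (chr6:38918736-38919035, plus strand): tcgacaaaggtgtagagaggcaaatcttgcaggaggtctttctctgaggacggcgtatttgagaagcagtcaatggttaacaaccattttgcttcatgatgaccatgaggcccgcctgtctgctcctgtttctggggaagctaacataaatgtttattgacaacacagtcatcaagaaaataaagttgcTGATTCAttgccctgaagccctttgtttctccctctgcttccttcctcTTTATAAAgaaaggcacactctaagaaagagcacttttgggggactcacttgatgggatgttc
Alox5 (chr6:116461129-116461428, minus strand): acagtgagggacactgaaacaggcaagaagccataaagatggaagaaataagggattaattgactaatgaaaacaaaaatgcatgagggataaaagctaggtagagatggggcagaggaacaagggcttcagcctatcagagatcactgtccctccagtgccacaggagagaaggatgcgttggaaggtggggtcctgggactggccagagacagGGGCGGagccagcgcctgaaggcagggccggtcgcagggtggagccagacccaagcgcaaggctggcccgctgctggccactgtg

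The Ptgs2 window held 4 matches, a GC box at -170, a C/EBP match at -69, and a cyclic AMP response element core at 14 that overlaps an E-box at 17, counted from the annotated start. Of 32851 RefSeq windows of this length, 35.7% hold a GC box, 10.8% the C/EBP letters, 20.8% that core and 7.15% the E-box. The Tbxas1 window held an AP-1 match at -61 and a TATA match, read on both strands at -13 and -11, which 7.81% and 13.6% of all windows hold. The Alox5 window held 1 match, a GC box at -35. No window of the 9 genes held the letters searched for the interferon-stimulated response element, the gamma-activated site or NF-kB, which occur in 0.170%, 8.30% and 8.46% of all windows. The windows of Ptgs2, Alox5 and Tbxas1 were 59.3%, 55.7% and 44.3% G and C, against a median of 52.7% over all windows. A match to letters is not a site shown to be used in these cells. Bases further than 250 before the annotated start were not searched, so a motif absent here may lie outside the window.

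Pla2g4a encodes the cytosolic phospholipase A2 that frees arachidonic acid. Its probe gave a signal of 11553 with PBS and 9268 with miR-122. After scaling the levels were 4.78 and 4.74, a difference of -0.04, well within the technical spread. In the RefSeq table of GRCm38.p6, Pla2g4a and Ptgs2 are close neighbours on chromosome 1, with 2 annotated genes and 0 protein-coding genes between them. The 2 neighbours did not share a difference past 2-fold.

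Ptgs2, the inducible cyclooxygenase, is the only one of the 10 genes whose probe was printed in several spots, 10 on each array. Its signal was lowest at 10013, had a median of 10636 and was highest at 10990 over the 10 spots of the PBS array. On the miR-122 array the lowest spot was 18759, the median 20016.5 and the highest 21839.5. Every spot of the miR-122 array was thus brighter than every spot of the PBS array, although spots of 1 array share 1 culture and are not replicates of the treatment. On the log2 scale the standard deviation over the spots was 0.04 with PBS and 0.07 with miR-122.

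**Figure D1:**
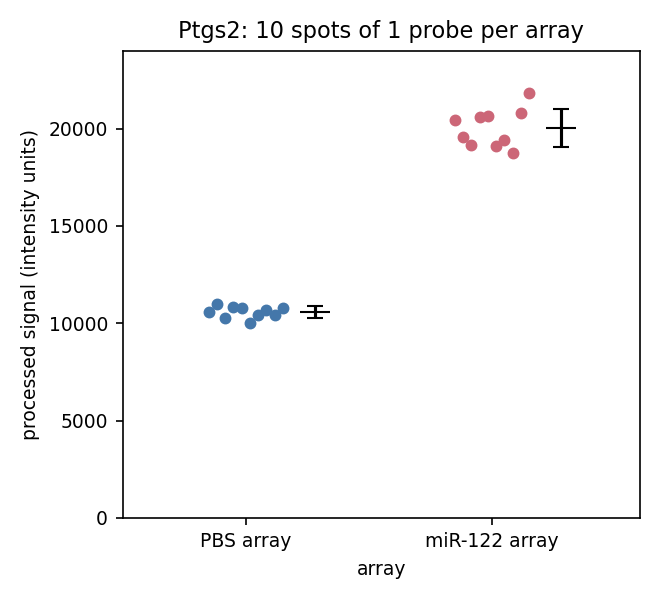
Processed signal (intensity units, axis from 0) of the 10 spots of the Ptgs2 probe on each array, with the mean and standard deviation over spots at the right of each column of points. The spots of the PBS array lie between 10013 and 10990 and those of the miR-122 array between 18759 and 21839.5, before scaling.

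The level of Ptgs2 was 4.65 with PBS and 5.85 with miR-122, a difference of 1.20. It ranked 456th from the highest of 15022 differences, and 3.03% of genes had a larger one. Of 10 equal groups of genes by mean level Ptgs2 lay in the brightest, where 8.12% of 1503 genes were at least 2-fold higher. The 2-fold mark was passed narrowly: Ptgs2 was 2.01-fold higher with quantile normalization and 1.89-fold without scaling. Measured against the median gene of these arrays, a reading that does not move with a uniform scaling, it was 2.15-fold higher. The PBS signal was already far above background, at 584 times the local background of its spots.

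Ptgs1, the other cyclooxygenase, was barely detectable. Its signal was 12.5 on the PBS array, with a scanner error estimate of 20.3%, and 6.49 on the miR-122 array, with an error estimate of 39.7%. It was well above background with PBS and not with miR-122. Its level of -5.08 on the PBS array lay below -4.92, the lowest level well above background on the miR-122 array, so the pair gives neither a fold nor a bound.

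Ptges encodes the inducible, membrane-bound prostaglandin E synthase that is often coupled to Ptgs2. Its brighter probe gave signals of 7910 with PBS and 7641 with miR-122, and its dimmer probe 170 and 172. The scaled differences were 0.23 and 0.30, close to or under 1 technical standard deviation. Hpgds, which encodes the hematopoietic prostaglandin D synthase, gave signals of 420 and 405 and a difference of 0.22. For both genes the small positive difference turned to -0.05 without scaling, so their direction was not determined.

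Tbxas1 encodes thromboxane A synthase. Its signal was 20.2 with PBS and 44.9 with miR-122, with scanner error estimates of 14.7% and 11.4%. The levels were -4.38 and -2.95 and the difference 1.43, with an error of 0.27 from the scanner estimates, and 2.11% of genes had a larger difference. The probe was dim on both arrays, with raw intensities 3.64 and 5.49 times the local background. These ratios are close to that of an undetected probe: Ptgs1 on the miR-122 array stood at 2.89 times. The 1502 genes of the same group by mean level had a median difference of 0.23, and 4.79% of them were at least 2-fold higher. With normexp, a background correction that adds a constant offset to every signal, Tbxas1 was 1.59-fold higher and no longer past 2-fold.

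Alox5, which encodes 5-lipoxygenase, the first enzyme of the leukotriene branch, was the gene of the 10 with the largest difference. Its signal was 826 with PBS and 217 with miR-122. The levels were 0.97 and -0.68 and the difference -1.65, with an error of 0.20 from the scanner estimates. Alox5 ranked 47th from the lowest of 15022 differences, and 0.306% of genes had a smaller one. In its group by mean level 3.33% of 1502 genes were at least 2-fold lower. Over the scalings, background corrections and filters tried, Alox5 stayed between 2.75-fold and 3.80-fold lower.

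The other 3 leukotriene genes had smaller differences of the same sign. Alox5ap, which encodes the 5-lipoxygenase activating protein FLAP, gave 5581 and 4465, a scaled difference of -0.05 that lay within the technical spread. Lta4h encodes leukotriene A4 hydrolase, which makes leukotriene B4, and its signals of 3090 and 1953 gave a difference of -0.39. Ltc4s encodes leukotriene C4 synthase, which makes the first cysteinyl leukotriene, and its signals of 281 and 158 gave a difference of -0.55, or 1.47-fold lower. The differences of Lta4h and Ltc4s were thus more than 1 technical standard deviation and less than 2-fold. Such sizes were common, as 33.4% of all genes had a larger absolute difference than Lta4h and 19.8% a larger one than Ltc4s.

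**Figure D2:**
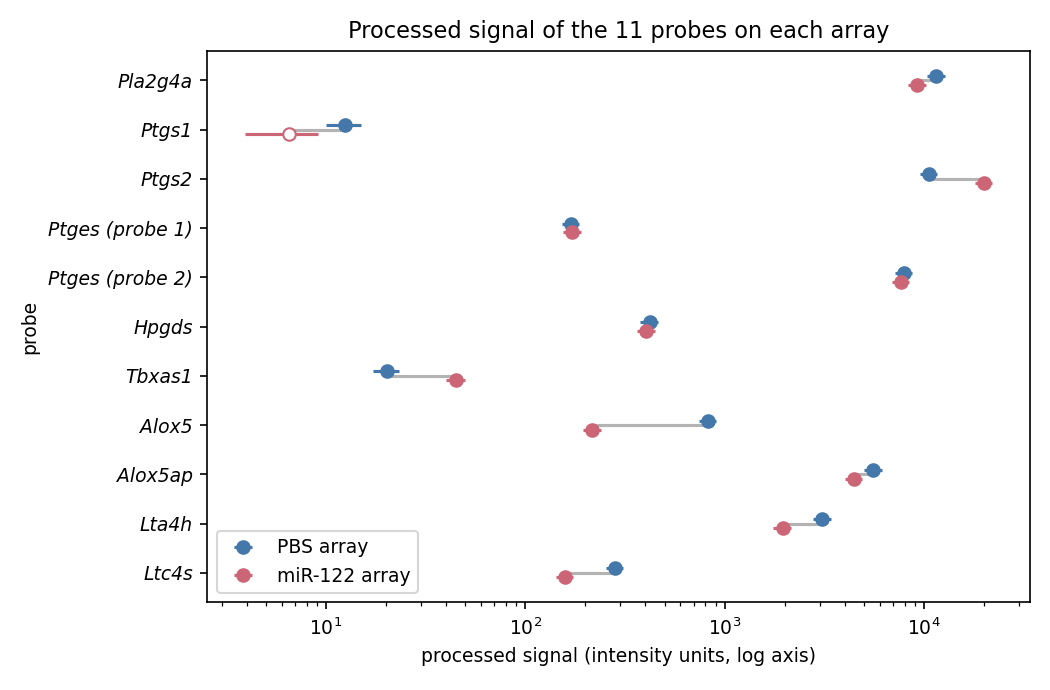
Processed signal (intensity units, log axis) of each of the 11 probes on the PBS and miR-122 arrays, with the error estimate of the scanner software as the bar; the open circle marks a signal not well above background. Alox5 is the gene with the widest gap between arrays, 826 against 217, and Ptgs1 and Tbxas1 are the dimmest.

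Taken by branch, all 4 leukotriene genes had negative differences, with a median of -0.47, that of Alox5ap being within the technical spread. The other scalings tried shifted the median gene by between -0.09 and -0.28, so they were no check on a negative sign. Of the 4 genes for prostaglandin synthesis, the 3 with a measured difference were positive, with a median of 0.23 that rests on Ptges, but those of Ptges and Hpgds turned negative without scaling. Over all genes 60.3% of differences were positive and 39.7% negative, and with so few genes neither branch is called different from that. The 9 measured genes had a median difference of -0.04 beside 0.09 over all genes, with 4 positive and 5 negative differences. In summed intensity the 9 genes made up 0.118% of the signal of all measured genes with PBS and 0.134% with miR-122. Ptgs2, with mean signals of 10583 and 20035, carried that rise. The 3 measured prostaglandin genes, Ptgs2 among them, went from 0.0554% to 0.0854%, and the 4 leukotriene genes from 0.0286% to 0.0207%.

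**Figure D3:**
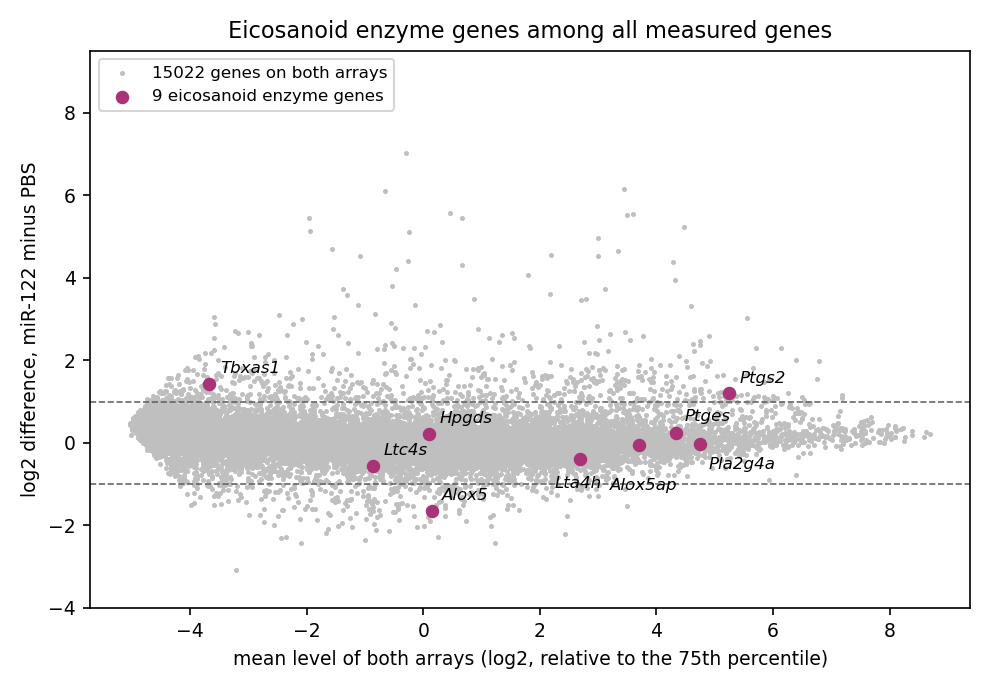
Log2 difference, miR-122 minus PBS, against the mean level of both arrays (log2, relative to the 75th percentile) for 15022 genes in grey and 9 eicosanoid enzyme genes in purple, with dashed lines at 2-fold. Ptgs2 (1.20) and Tbxas1 (1.43) lie above the upper line, Alox5 (-1.65) lies below the lower one and the other 6 genes lie between them.

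The authors' deposited log2 values, normalized by a method not given in the sources used here, put the same 3 genes past 2-fold. In those values Ptgs2 stood at 13.31 for PBS and 14.32 for miR-122, or 2.01-fold higher. Alox5 stood at 9.57 and 7.88, a difference of -1.69, and Tbxas1 at 4.33 and 5.56, a difference of 1.23. They were made from the same 2 arrays and add no independent measurement.

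**Figure D4:**
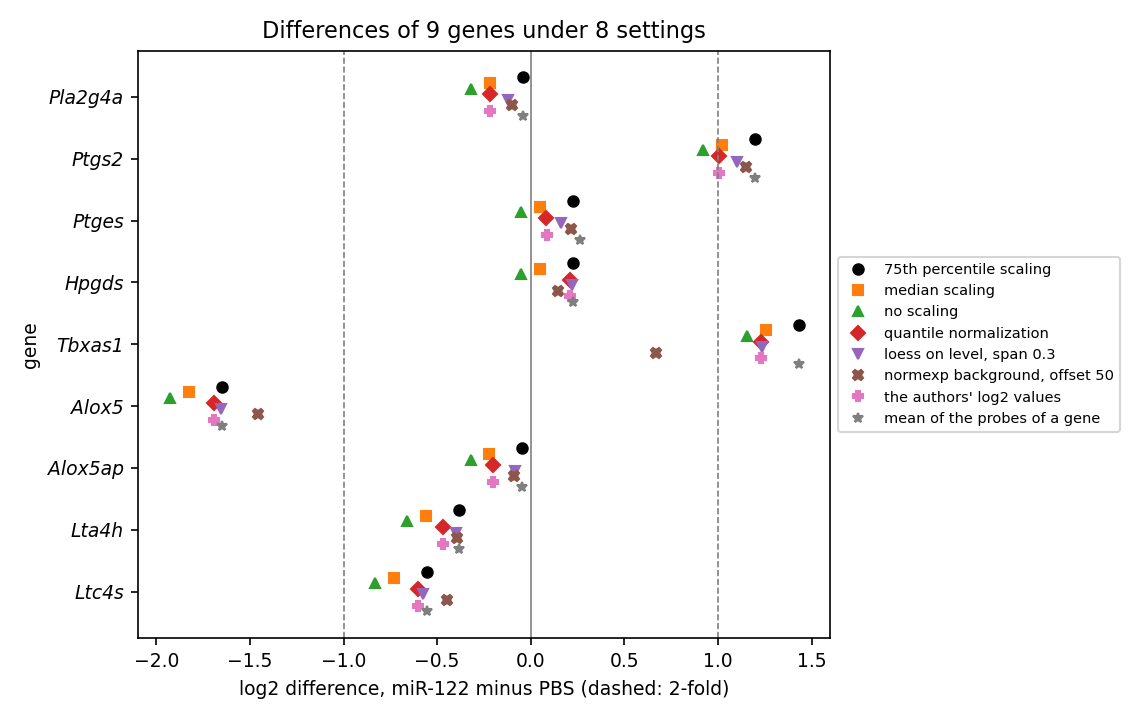
Log2 difference, miR-122 minus PBS, of the 9 genes measured on both arrays under 8 ways of scaling, background correction or averaging of probes, one marker for each, with dashed lines at 2-fold. Alox5 stays left of -1 in all 8, Ptgs2 lies at or near 1, between 0.92 and 1.20, and Tbxas1 moves to 0.67 with normexp.

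Other genes of eicosanoid metabolism were read from 5 lists. Of 91 listed genes 89 had a probe and 67 were detected on both arrays. Their median difference was -0.06, and 4 of them passed 2-fold upward and 1 downward, beside the 4.57% and 1.78% of all genes. The balance turned with the scaling: 2 were higher and 3 lower with median scaling, and 1 was higher and 5 lower without scaling. The counts were 2 and 2 with quantile normalization and 2 and 0 with normexp.

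Among 10 measured receptors 2 passed 2-fold upward, and the median difference was 0.13. Ptgir, the prostacyclin receptor, gave signals of 1213 and 2243 and a difference of 1.16, or 1.98-fold with median scaling. Ltb4r2, the low-affinity leukotriene B4 receptor, was dim on both arrays, at levels of -3.69 and -2.63, and its difference of 1.07 was 0.59 with normexp. Ptger4, a prostaglandin E2 receptor, had levels of -2.83 with PBS and -3.83 with miR-122, just short of 2-fold lower. It was past 2-fold lower with 5 other scalings, by 2.25-fold with loess to 2.42-fold without scaling, and 1.17-fold lower with normexp. Among the 5 are the authors' values, which nearly repeat quantile normalization. Cysltr1, a cysteinyl leukotriene receptor, had a difference of 0.62.

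Among 17 measured genes of other synthases, lipoxygenases and cytochrome P450 enzymes, 3 were past 2-fold, all of them P450 genes of large families whose close relatives a probe may share. Cyp2j6, whose family makes epoxides of arachidonic acid, had levels of -4.59 and -2.26 and a difference of 2.33, or 1.03 with normexp. Cyp4a12a, which makes a hydroxylated arachidonic acid in mouse kidney, had a difference of 1.21, or 0.45 with normexp. Its PBS level of -5.11 was near -5.29, the lowest level well above background on that array. It was 2.05-fold higher with median scaling, 1.91-fold with quantile normalization or without scaling, and 1.90-fold with loess. Cyp2s1 had a difference of -1.61, or -0.85 with normexp. Aloxe3, an epidermal lipoxygenase, had 0.26.

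No measured gene of the other 3 lists passed 2-fold with the scaling used. Abcc4, an exporter of prostaglandins, was 2.08-fold lower with median scaling and 2.23-fold lower without scaling. Without scaling the acyl-CoA synthetase genes Acsl1, by its brighter probe, and Acsl3 were 2.04-fold and 2.01-fold lower. The 13 phospholipases A2 had a median of 0.10, with Pla2g5 at 0.48, Pla2g12b at 0.45, Pla2g2f at 0.40 and Pla2g15 at -0.38. Of the phospholipases on 1 array only, Pla2g4c and Pla2g1b were at least 2.23-fold and 2.05-fold higher on the miR-122 array, and Pla2g10 at least 2.32-fold lower. Bounds of 2-fold or more were met by 24.7% of 466 genes detected with miR-122 only and by 4.27% of 750 detected with PBS only. The 15 genes that activate, re-esterify or release arachidonic acid by other routes had a median of -0.22, and 12 of them were negative. Acsl1 and Acsl3 had differences of -0.75 and -0.73, the lysophospholipid acyltransferase gene Lpcat1 had -0.54 and Acsl6, with dim signals, 0.54. Only 1 of the 2 Acsl6 probes was detected on both arrays, and their mean difference was 0.18. The dimmer Acsl1 probe had -0.25, within the technical spread, and the mean of the Acsl1 probes was 1.41-fold lower. The 12 genes of breakdown and transport had a median of -0.10, with Abcc4 at -0.88, the prostaglandin transporter gene Slco2a1 at 0.64, Dpep2 at 0.27 and Abcc1, the leukotriene C4 exporter, at -0.25. Hpgd, which begins prostaglandin breakdown, was not well above background on either array.

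**Figure D5:**
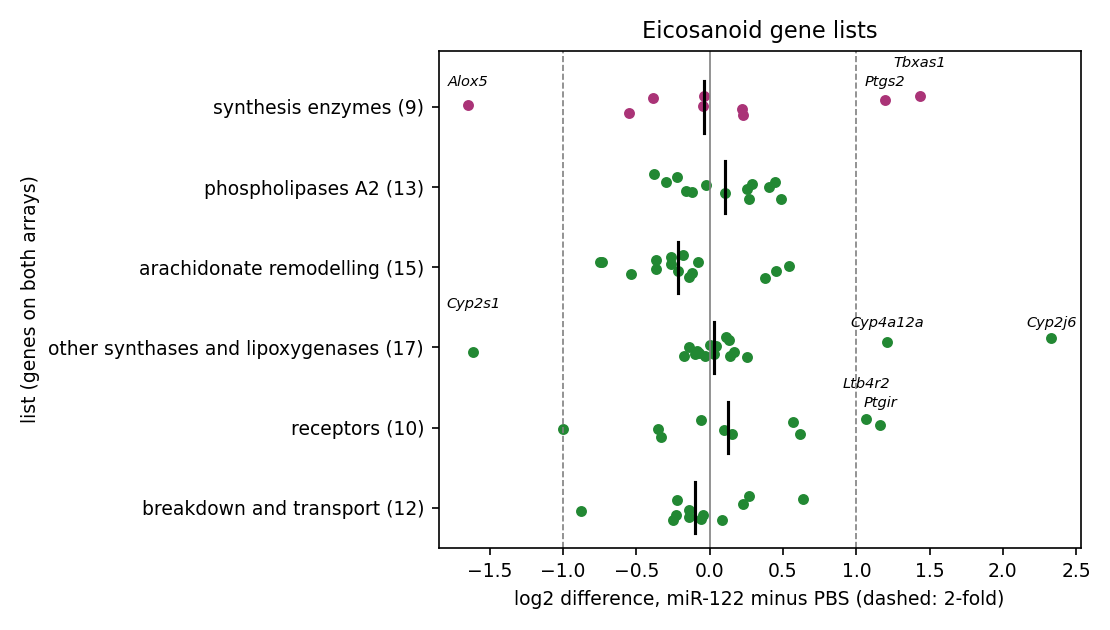
Log2 difference, miR-122 minus PBS, of the genes well above background on both arrays in the synthesis genes (9) and in 5 other eicosanoid lists, 1 point per gene with the median as a black bar and dashed lines at 2-fold. The medians lie between -0.22 and 0.13, and the genes past 2-fold are named.

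The arrays carried RNA of cells with macrophage markers. Of 11 such markers 9 were well above background on both arrays, with Cd14, Csf1r and Tyrobp at levels of 4.57 or more on each, while Cd68 had no matched probe and Mertk was not well above background. The 9 markers summed to 0.294% of the signal of all measured genes with PBS and 0.207% with miR-122. They moved in both directions, with 4 positive and 5 negative differences. Fcgr1 was 10.1-fold higher, and Spi1, Ptprc and Cd14 had differences of 0.58, 0.45 and 0.25. Csf1r, Lyz2 and Adgre1 were 1.71-fold, 1.64-fold and 1.49-fold lower by their brightest probes, and Tyrobp had a difference of -0.25. The 3 probes of Csf1r ranged from -0.78 to -0.06. The brightest, with signals of 46202 with PBS and 22246 with miR-122, had the largest fall in signal among the 9 markers. Itgam was 1.80-fold lower by its brightest probe, and its probes differed in opposite directions. Mast cells are a known source of Hpgds and Ltc4s products. Of 8 mast cell markers, Cpa3, Kit and Ms4a2 were not well above background on either array, and the 4 measured ones summed to 0.00729% of the signal of all measured genes with PBS and 0.00611% with miR-122. Platelets are a known source of thromboxane, and the 5 measured of 7 platelet markers summed to 0.00211% and 0.00116%, with Ppbp not well above background on either array. Each sum was carried mostly by 1 gene, Mcpt4 with signals of 2377 and 1896 and Pf4 with 599 and 264. The other 3 mast cell markers had positive differences by their brightest probes. Of these, the 2 probes of Tpsb2 differed in opposite directions, at -0.84 and 0.20. Fcer1a and Cma1 were dim, with PBS signals of 14.1 and 13.1. Among the dim platelet markers Gp9 was 2.06-fold and Itga2b 1.46-fold higher, so the sums do not describe the lists as a whole. The part of such cells in these values was not tested.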

How the data were processed

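The deposited scanner files hold spot intensities. Per the file headers they were made with Agilent Feature Extraction 11.0.1.1, which subtracts background and detrends within an array, without normalizing between the 2 arrays, which lay on 1 slide. The deposited series matrix holds log2 values by the authors; both of its columns have a median of 5.16, and each column had a correlation of 0.997 across probes with log2 scanner signals. The sources used here do not give its normalization. How the RNA was purified is not clear from the labels' protocols, which name only RIPA buffer.

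Control spots and flagged outlier spots were left out, spots of a probe were averaged on the log2 scale, and the 75th percentile was subtracted on each array. A probe counted as well above background when at least a share of 0.5 of its spots carried the scanner flag, as 71.8% of probes did with PBS and 69.9% with miR-122. A gene took its brightest such probe. Names came from RefSeq accessions, without versions, of GRCm38.p6 (27234 of 39429 probes); the array design names another build, so only sequence windows carry coordinates. Genes are named by a rule: every member, up to 4 genes of each other list with the largest absolute difference and agreeing probes, and bounds of at least 2-fold. Agreement was judged only over probes well above background on both arrays. For a gene detected on 1 array, a bound compares its level there with the lowest detected level of the other array or, if higher, its own level on that array. Members, lists and rules were chosen with earlier results of these data known. No test was run, because each group had 1 array. The number of arrays limits the precision. Alternatives were other scalings, loess with a span of 0.3, normexp with an offset of 50 on median intensities, the authors' values, other filters and folds of 1.5 and 4. Counting was tested on simulated data. R 4.3.3, limma 3.58.1, Python 3.11.15, numpy 2.4.6 and pandas 2.3.3 were used.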

Additional observations from a re-analysis of the deposited data

How the results depend on the processing

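Of 54 differences of the 9 measured members under 6 other scalings or background corrections, 53 moved by less than the technical spread of 0.30. Alternatives in the choice of probes or spots could hardly move members with 1 probe and are not counted. The exception was Tbxas1 with normexp, at 0.67, where the added offset shrinks the fold of a dim gene. Median scaling and no scaling shift every gene alike, by -0.18 and -0.28, so under them no difference could move by 0.30. The authors' values nearly repeat quantile normalization. The 53 are therefore not 53 separate checks. The count of members at least 2-fold higher, 2 as reported, was 1 without scaling, where Ptgs2 was lost at 1.89-fold, 1 with normexp, where Tbxas1 was lost, and 0 at a 4-fold threshold. The count of members at least 2-fold lower was 1 in every alternative except the 4-fold threshold, where it was 0. The sign of the differences of Ptges and Hpgds turned without scaling. Relative to the median gene, an alternative chosen after seeing the data, the counts were again 2 and 1. Median scaling moved the median of all genes by -0.18, quantile normalization by -0.12 and no scaling by -0.28.

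For the other eicosanoid lists the alternatives were also added after seeing the data. Against 4 higher and 1 lower, the counts were 2 and 3 with median scaling, 1 and 5 without scaling, 2 and 2 with quantile normalization, with loess and with the authors' values, 2 and 0 with normexp, 8 and 2 without a filter on dim probes, and 1 and 0 at 4-fold. At 1.5-fold 6 were higher and 5 lower, beside 12.1% and 5.99% of all genes. These counts changed with the scaling and with the treatment of dim probes. Over all genes, 687 were at least 2-fold higher and 268 lower, so 71.9% of those past 2-fold were higher, against 471 and 456, or 50.8%, with median scaling, 40.5% without scaling, 59.9% with quantile normalization or the authors' values, and 388 and 143 with normexp. No paired analysis was possible because each group had 1 array. No replicate could be left out for the same reason.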
